A study of Mus musculus with 18 samples.

Results

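Alpha-defensins, called cryptdins in the mouse, are small antimicrobial peptides that Paneth cells store in granules at the base of the intestinal crypt. The 9 genes described here (Defa21, Defa22, Defa24, Defa26, Defa29, Defa30, Defa34, Gm14851 and Gm15292) are 9 of the 24116 genes of a table of RPKM values (reads scaled by the length of the gene and the size of the library). They were chosen by their RPKM on days 3, 4 and 5, which earlier results of the same data had shown to be high, and were found in the table by their symbols. Changes between days that involve those days are therefore given as a description with no test. Gm14851 and Gm15292 are named Defa38 and Defa40 in RefSeq, and the table holds 20 further alpha-defensin genes.

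The libraries were made from RNA of mouse intestinal organoids, cultured miniature epithelia that arise from stem cells. The animals were wild type C57BL/6 mice, 8 weeks old. The 18 libraries comprised 3 for each of days 0, 1, 2, 3, 4 and 5, each from 30 pooled wells. All groups received a medium with EGF, Noggin and R-spondin, and differed in what was added. Up to day 3 the medium also contained 20% Wnt3a-conditioned medium and 10 µM Y-27632, which inhibits ROCK. Up to day 1 it contained 3 µM CHIR99021, which inhibits GSK3, so the day and the medium cannot be told apart. The sample titles assign replicate 1 to mouse 1 and replicate 3 to mouse 3 throughout. Replicate 2 is assigned to mouse 2 on days 0, 3, 4 and 5, but to mouse 1 on days 1 and 2. Replicate 1 of each day was the library without DNase treatment, so treatment and organoid line largely coincide. Values are means ± SD of n = 3 libraries, and p-values measure the spread between these libraries, which come from 3 organoid lines or, on days 1 and 2, from 2.

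Paneth cells sit beside the stem cells of the crypt and secrete lysozyme, alpha-defensins, lectins and growth signals. Their formation depends on Wnt signalling, which acts through TCF factors, and on the secretory factor Atoh1. Mouse alpha-defensins are made as inactive precursors that the metalloproteinase matrilysin, encoded by Mmp7, cuts to the active peptide. In RNA of whole organoids, a change in the number of Paneth cells and a change in RNA per cell cannot be told apart.

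All 9 genes lie on chromosome 8 within the alpha-defensin cluster and have 2 exons (RefSeq, GRCm38). Defa21 is at chr8:21025545-21026517, Defa30 at chr8:21134650-21135598, Defa22 at chr8:21162277-21163249 and Gm15292 at chr8:21249715-21250553. Defa26 follows at chr8:21618168-21618972, Defa34 at chr8:21665797-21666733 and Defa24 at chr8:21734494-21735471, all 7 on the plus strand. Gm14851, at chr8:21094971-21096050, and Defa29, at chr8:21325888-21327020, are on the minus strand. The 7 plus-strand genes share a coding length of 279 bases with 6 cysteine codons, all of them within the last 35 codons. Gm14851 and Defa29, which belong to the cryptdin-related sequence genes, have a coding length of 348 bases and 11 cysteine codons, of which 5 are in the last 35.

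The ends of the coding sequences are shown because they encode the mature peptide region of the plus-strand genes and show how close the copies are. For Gm14851 they hold only 5 of its 11 cysteine codons. Each line is the last 105 coding bases before the stop codon on the coding strand (GENCODE M21, GRCm38), with the cysteine codons in capitals.
Defa24: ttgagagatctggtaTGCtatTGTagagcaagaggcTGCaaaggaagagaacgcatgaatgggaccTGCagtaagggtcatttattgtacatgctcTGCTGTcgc
Defa30: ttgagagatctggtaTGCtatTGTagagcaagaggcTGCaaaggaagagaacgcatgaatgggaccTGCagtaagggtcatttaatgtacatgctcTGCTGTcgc
Defa21: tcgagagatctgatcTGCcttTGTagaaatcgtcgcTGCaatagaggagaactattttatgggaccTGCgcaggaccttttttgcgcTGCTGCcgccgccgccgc
Defa22: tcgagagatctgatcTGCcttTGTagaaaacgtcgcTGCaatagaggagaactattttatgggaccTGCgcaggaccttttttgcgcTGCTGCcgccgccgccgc
Defa26: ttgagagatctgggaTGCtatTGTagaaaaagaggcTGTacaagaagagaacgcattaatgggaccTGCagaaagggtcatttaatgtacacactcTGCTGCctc
Defa34: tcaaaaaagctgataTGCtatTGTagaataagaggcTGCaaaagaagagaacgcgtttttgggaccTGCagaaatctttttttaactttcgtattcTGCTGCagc
Gm14851: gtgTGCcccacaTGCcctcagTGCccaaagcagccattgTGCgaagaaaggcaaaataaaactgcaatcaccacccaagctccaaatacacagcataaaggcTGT
These 105 bases lie at chr8:21735270-21735374 for Defa24, chr8:21135396-21135500 for Defa30, chr8:21026316-21026420 for Defa21 and chr8:21163048-21163152 for Defa22. For Defa26 they are chr8:21618775-21618879, for Defa34 chr8:21666532-21666636, and for Gm14851 chr8:21095077-21095181 on the minus strand.

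Counted from 1 at the first base of each line, Defa24 and Defa30 differ there by T85A and Defa21 and Defa22 by T30A, the first-named gene's base standing first. Over the 279 coding bases, Defa21 and Defa22 differed at 2 positions, Defa24 and Defa30 at 4, and Defa26 and Gm15292 at 6. Defa29 and Gm14851 differed at 9 of 348. All other pairs of plus-strand members were between 78.5% and 90.7% identical. The 9 genes thus form 4 pairs of near-identical copies, with Defa34 outside any pair.

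The upstream sequence was at hand for 4 of the 9 genes, Defa21, Defa22, Defa30 and Gm14851 (RefSeq, GRCm38.p6). It is shown because these genes move together over the time course. Capitals mark ATCAAAG, the core that TCF factors recognise, and TATAAA, both searched on both strands (CTTTGAT and TTTATA on the other), which do not overlap one another here.
Defa21: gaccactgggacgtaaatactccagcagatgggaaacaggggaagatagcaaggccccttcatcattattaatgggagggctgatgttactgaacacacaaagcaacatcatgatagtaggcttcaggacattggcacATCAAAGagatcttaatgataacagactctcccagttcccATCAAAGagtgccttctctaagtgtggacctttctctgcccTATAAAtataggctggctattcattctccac
Defa30: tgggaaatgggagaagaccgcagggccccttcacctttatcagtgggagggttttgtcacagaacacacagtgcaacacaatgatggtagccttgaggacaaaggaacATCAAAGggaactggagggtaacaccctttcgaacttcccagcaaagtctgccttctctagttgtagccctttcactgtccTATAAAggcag
Gm14851: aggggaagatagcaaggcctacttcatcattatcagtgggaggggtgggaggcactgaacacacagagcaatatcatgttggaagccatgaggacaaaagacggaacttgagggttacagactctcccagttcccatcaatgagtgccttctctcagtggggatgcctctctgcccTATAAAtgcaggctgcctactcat
The Defa21 stretch is chr8:21025295-21025544, the 250 bases before the annotated start, and that of Defa22 is identical to it at all 250. The Defa30 stretch is chr8:21134400-21134599 and the Gm14851 stretch chr8:21096101-21096300 on the minus strand, both from base -250 to base -51. Defa21 and Defa22 each held 2 matches to ATCAAAG, starting 112 and 72 bases before the start, Defa30 held 1 at base -142, and Gm14851 held none in this window. Of 32851 RefSeq promoters, searched over the same 250 bases before the start, 3.21% held at least 1 match and 27 held 2 or more. TATAAA lay at base -31 in Defa21 and Defa22, -61 in Defa30 and -74 in Gm14851, and 12.4% of the promoters held it. A match is a description of the letters and shows no binding.

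How far the copies can be told apart was read from their GENCODE M21 transcripts. The lengths by which the deposited table was scaled differed from these for some genes. They were 282 bases against 385 for Gm15292 and 454 against 351 for Gm14851. The table may therefore have counted other sequences than those used here. Of all 50-base windows of the Defa24 transcript, 71.9% occurred in no other gene, against 62.8% for Gm15292, 59.8% for Defa26, 56.6% for Defa29, 47.6% for Defa30 and 44.4% for Gm14851. The share was 27.1% for Defa21, 25.1% for Defa22 and 16% for Defa34. With windows of 100 bases it was 100% for Defa24 and 99.7% for Defa30, but still 59.6% for Defa21, 59.7% for Defa22 and 25% for Defa34. Neither the read length nor the handling of reads that match several genes is known here, so the split between Defa21 and Defa22, and the level of Defa34, are uncertain.

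**Figure D1:**
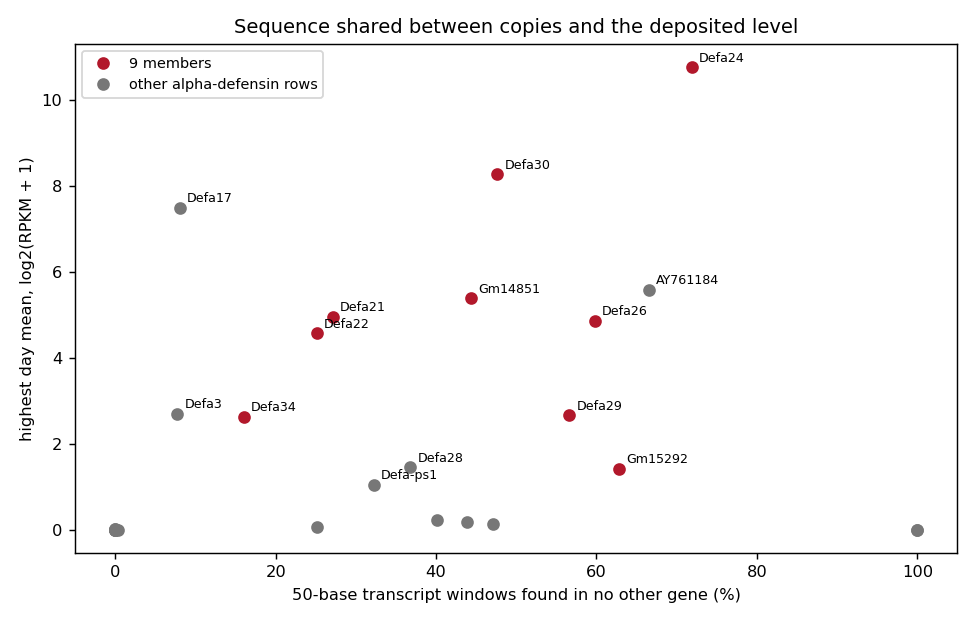
Each point is 1 alpha-defensin gene with an annotated transcript, plotted by the percentage of its 50-base windows found in no other gene (x axis) and its highest day mean as log2(RPKM + 1) (y axis), red for the 9 members and grey for the others. Defa24 combines 71.9% unique windows with the highest level, while Defa34 has 16% and Defa17, outside the 9, has 8.05%.

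Library sizes read back from the values lay between 43010000 and 53930000 reads, with 9953 to 10758 genes at 1 RPKM or more. Testing covered the 11111 genes that had 1 RPKM or more in 3 libraries or more. All 9 members passed, but 7 of them only through libraries of days 3 to 5, so passing says nothing about their change. Day 3 replicate 2 held the lowest or tied lowest value of all 9 members on its day, and the changes into and out of day 3 are given with and without it.

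Defa24 was the most abundant member in every library. On day 0 it stood at 97.9, 50.3 and 145 RPKM in replicates 1, 2 and 3, on day 1 at 40.5, 40.5 and 81, and on day 2 at 48.9, 22.2 and 48.2. It then reached 312, 62.9 and 308 RPKM on day 3, 651, 630 and 662 on day 4, and 1567, 2049 and 1617 on day 5. Day 1 overlapped with both day 0 and day 2, but all 3 libraries of day 2 lay below all 3 of day 0, the lowest of which was replicate 2. Those of day 3 lay above those of day 2, and each later day lay above the day before without overlap. The day means were 39.8 ± 15.2 RPKM on day 2 and 1744 ± 265 on day 5, the latter 17.8 times the 97.8 ± 47.5 of day 0.

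Defa30, its closest copy in sequence, started much lower and ended closer to it. It was at 1.72, 3.03 and 1.84 RPKM on day 0, 0.998, 0.869 and 0.738 on day 1, and 0.538, 0.278 and 0.863 on day 2. Day 3 was spread widely, with 14.9, 0.389 and 3.96 RPKM in replicates 1, 2 and 3. Replicate 2 of day 3 thus lay inside the range of day 2, while the other two libraries were above it. Day 4 followed with 77.2, 38.5 and 30 RPKM and day 5 with 277, 406 and 241. The day 5 mean of 308 ± 86.7 RPKM was 140 times the day 0 mean of 2.2 ± 0.724, and the summed reads of the 3 libraries went from 124 to 16947.

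The near-identical genes Defa21 and Defa22 were close to 0 on days 0 to 2. Defa21 gave 3, 0 and 2 reads over the 3 libraries of days 0, 1 and 2, and Defa22 gave 6, 2 and 3. On day 3, Defa21 was at 1.07, 0 and 0.263 RPKM and Defa22 at 1.38, 0 and 0.263 in replicates 1, 2 and 3. The pair kept the same order of libraries on day 4, with 9.36, 2.63 and 4.02 RPKM for Defa21 and 9.32, 2.32 and 5.12 for Defa22. On day 5, Defa21 reached 29.8, 33.5 and 26.6 RPKM and Defa22 21.8, 25.2 and 21.4. All 6 values of day 5 lay above all 6 of day 4, and reads from these copies may have been exchanged between them.

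Defa26 was at 0.153, 0.0536 and 0.562 RPKM on day 0, and at 0, 0.112 and 0.109 on day 2. It was at 2.54, 0.168 and 1.2 RPKM on day 3, 8.74, 5.36 and 8.49 on day 4, and 24.3, 34.5 and 25.9 on day 5. Its 3 libraries of day 3 all lay above those of day 2, though replicate 2 only just. Gm15292, the copy that differs from Defa26 at 6 coding bases, had no read on days 0, 1 and 2. It was at 0.379, 0 and 0.0782 RPKM on day 3, 0.48, 0.235 and 0.233 on day 4, and 1.22, 2.39 and 1.41 on day 5, where the 3 libraries held 66 reads. Gm15292 therefore carries the largest counting error of the 9.

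Of the minus-strand genes, Gm14851 had the lowest share of its day 5 mean of all members on days 3 and 4. Defa29 did not stand apart from plus-strand genes, with a share of 2.1% on day 3 against 1.49% for Defa21. Gm14851 was listed at 0 in all 3 libraries of day 2, at 1.13, 0 and 0.0972 RPKM on day 3, and at 7.07, 1.46 and 1.54 on day 4. Day 5 brought it to 36.5, 56 and 30.2 RPKM, a mean of 40.9 ± 13.5, or 12.2 times the day 4 mean of 3.36 ± 3.21. Defa29 had no read on days 1 and 2, and was at 1.07, 0.435 and 0.302 RPKM on day 4 and at 4.37, 8.25 and 3.47 on day 5. For both genes, the lowest library of day 5 was more than 3 times as high as the highest of day 4. Defa34 stayed at or below 0.117 RPKM up to day 3, and was at 1.95, 0.88 and 0.873 RPKM on day 4 and 5.49, 5.81 and 4.23 on day 5.

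**Figure D2:**
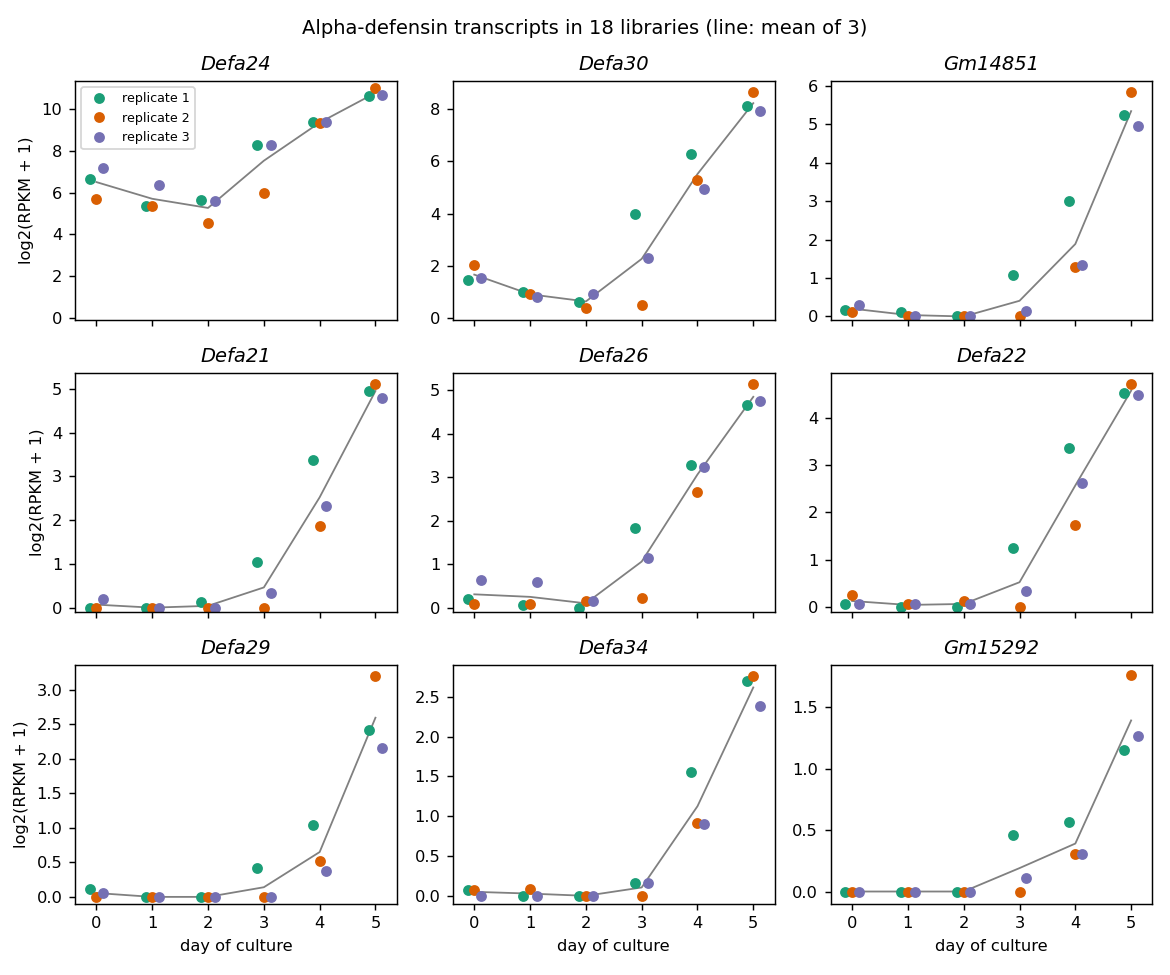
Each panel is 1 member, with day of culture (x axis) against log2(RPKM + 1) (y axis, a separate range per panel), 1 point per library coloured by replicate number and a line through the mean of the 3 libraries. Every member was at its highest on day 5, where Defa24 averaged 1744 RPKM and Gm15292 1.67, and replicate 2 was low on day 3 and high on day 5.

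The comparisons among days 0, 1 and 2 are the ones whose changes did not choose the members, although their errors come from a fit of all 18 libraries. Only Defa24 and Defa30 could be tested in them, as the other 7 members had no library of days 0 to 2 at 1 RPKM. Among these days Defa30 reached 1 RPKM on day 0 alone, so its test bears only on day 0 to day 1. From day 0 to day 1, which spans the only day in CHIR99021, neither was called by limma at an adjusted p under 0.05, nor had an unadjusted p under 0.05. The share called was 18.6% of all genes tested, 9.54% higher and 9.05% lower. Defa24 changed by -0.80 ± 0.53 (SE) on the log2(RPKM + 1) scale with an adjusted p of 0.318, which ranged from 0.146 to 0.666 over the alternatives. For Defa30 the change was -0.75 ± 0.59 with an adjusted p of 0.406, ranging from 0.0281 to 0.638, and all 3 libraries of day 1 were below all 3 of day 0. The value under 0.05 came from the fit of these 2 days alone, so whether Defa30 is called lower depends on which libraries give the error.

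From day 1 to day 2 neither gene was called or had an unadjusted p under 0.05. Of all genes, 0% were called and 263 had an unadjusted p under 0.05. Defa30 was below 1 RPKM in every library of both days, so nothing is concluded for it here. Defa24 changed by -0.44 ± 0.53 and Defa30 by -0.28 ± 0.59, both with an adjusted p of 1 in limma. The other 7 members were too low on these days to show a fall, since 14 of the 27 member values of day 1 and 16 of those of day 2 were 0.

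The changes from day 2 on are described with no test. The median log2 change of the 9 was 0.42 from day 2 to day 3 (0.65 without day 3 replicate 2), 1.82 from day 3 to day 4 and 1.95 from day 4 to day 5, against -0.04, -0.09 and -0.03 for all genes tested. Without day 3 replicate 2 the median from day 3 to day 4 was 1.27. The later 3 libraries lay above the earlier 3 for 2 of 9 members from day 2 to day 3 (0.729% of all genes), Defa24 and Defa26. Without day 3 replicate 2, an alternative chosen after seeing the data, it held for 8 of 9 (2.95% of all genes), all but Defa29. The same held for 7 of 9 from day 3 to day 4 (1.55% of all genes), the exceptions with and without that library being Defa29 and Gm15292, and for 9 of 9 from day 4 to day 5 (5.43% of all genes). From day 0 to day 5 it held for 9 of 9 (19.2% of all genes), with log2 changes from 1.39 ± 0.16 for Gm15292 to 6.58 ± 0.59 for Defa30. These counts restate how the genes were chosen.

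The members did not come up at the same pace. On day 3 the mean of Defa24 was 13.1% of its day 5 mean, while that of Gm14851 was 1%, and without replicate 2 of day 3 these shares were 17.8% and 1.5%. On day 4 Defa24 had reached 37.1% of its day 5 level, Defa26 26.7%, Defa22 24.5% and Defa34 23.9%. Lower shares were seen for Gm15292 at 18.9%, Defa21 at 17.8%, Defa30 at 15.8%, Defa29 at 11.2% and Gm14851 at 8.2%. Taken within replicate numbers, the share ran from 30.7% to 41.5% for Defa24 and from 2.6% to 19.4% for Gm14851, without overlap. The ranges of genes between them in this order overlapped, such as 15.5% to 36% for Defa26 and 9.17% to 42.7% for Defa22. For lysozyme, Lyz1, the day 4 mean was 48.1% of the day 5 mean, with a range of 33.1% to 82.7%.

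**Figure D3:**
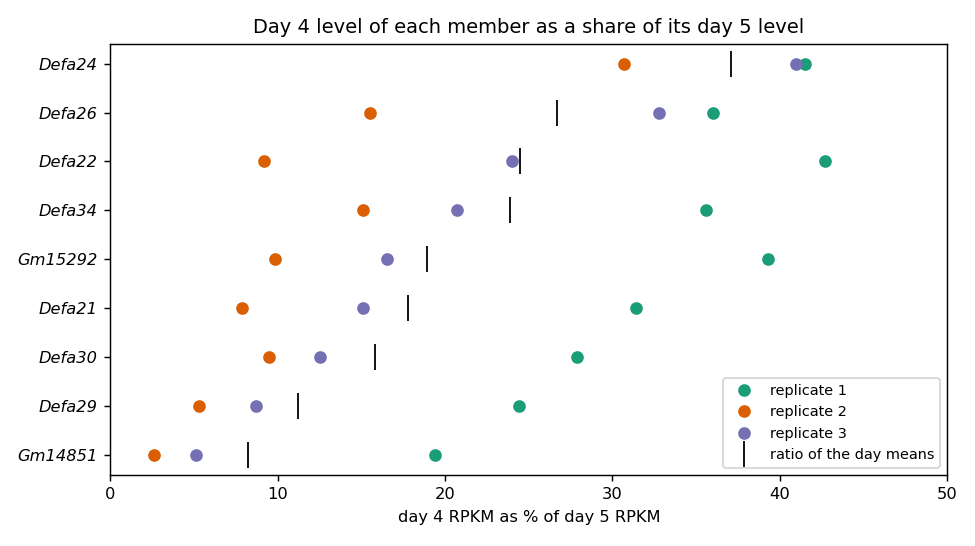
The day 4 RPKM of each member as a percentage of its day 5 RPKM (x axis), with 1 coloured point per replicate number and a black bar for the ratio of the day means. Replicate 2 gave the lowest share for every member, and the bars fall from 37.1% for Defa24 to 8.2% for Gm14851.

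The highest library of each of days 3, 4 and 5 was shared by at least 8 of the 9 members, and no single library was highest for more than 4 on days 0, 1 and 2. On day 3 replicate 1 was the highest library for 8 of the 9 and replicate 2 the lowest or tied lowest for all 9. On day 4 replicate 1 was again the highest for 8, Defa24 being the exception, while the lowest was replicate 2 for 5 members and replicate 3 for 4. On day 5 replicate 2 was the highest for all 9. Copies that may share reads are not independent of one another here. Lyz1 was likewise low in replicate 2 of day 3, at 93.5, 13 and 80.5 RPKM in replicates 1, 2 and 3, and highest in replicate 2 of day 5, at 296, 333 and 171. On day 4, however, Lyz1 was highest in replicate 3, at 133, 110 and 142 RPKM. Replicate 1 was the library without DNase treatment, and the part of that in its high values was not tested.

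The organoid line was tested as a difference within days, which did not choose the members, but for 7 of them the signal comes from days 3 to 5 alone. In limma's F test of the line, fitted with the day, neither Defa24 nor Defa30 passed at an adjusted p under 0.05. The share passing was 0.063% of all genes. Neither gene had an unadjusted p under 0.05, against 1391 genes in all. None of the other 7 passed or had an unadjusted p under 0.05. These 7 entered the test only through libraries of days 3 to 5, so nothing is concluded for them. The lowest adjusted p was 0.405, for Defa24, which differed by -0.60 ± 0.37 between mouse 2 and mouse 1 and by 0.40 ± 0.30 between mouse 3 and mouse 1 on the log2 scale. Over the alternatives the lowest adjusted p of any member was 0.0724, for Defa21.

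Together the 9 members summed to 101 ± 47.2 RPKM on day 0, 55.2 ± 23.5 on day 1 and 40.5 ± 15.4 on day 2. The sum was 237 ± 151 RPKM on day 3, with 334, 63.4 and 314 in replicates 1, 2 and 3, 720 ± 42.7 on day 4 and 2186 ± 376 on day 5. With the 20 other alpha-defensin genes, the family made up 0.0152% ± 0.00617 of all RPKM on day 2 and 0.773% ± 0.139 on day 5. Defa24 supplied 98.2% ± 0.496 of the sum of the 9 on day 2, 90.1% ± 4.44 on day 4 and 80% ± 1.95 on day 5. The share of Defa30 was 1.35% ± 0.351, 6.65% ± 3.06 and 13.9% ± 1.64 on the same days. The ratio of Defa24 to Defa30 varied widely up to day 3, from 16.6 to 78.9 in the libraries of day 0, 55.9 to 90.9 in those of day 2 and 21 to 162 in those of day 3. It was between 5.05 and 6.72 on day 5. These are ratios of values per length. The lengths by which the table was scaled could be read back for 8 members, from 282 bases for Gm15292 to 507 for Defa29, but not for Defa24, whose share rests on an unchecked length.

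**Figure D4:**
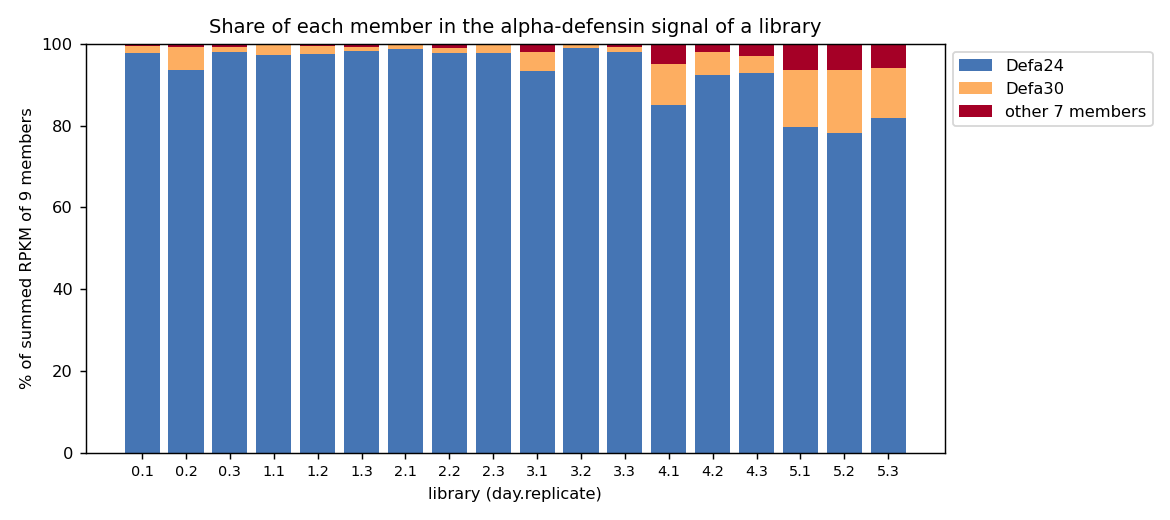
Stacked bars for the 18 libraries, named by day and replicate (x axis), give the share of Defa24 (blue), Defa30 (orange) and the other 7 members (red) in the summed RPKM of the 9 (y axis, percent). Defa24 fills nearly the whole bar up to day 2 and 78.2% to 82% of it on day 5.

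Of the 20 alpha-defensin genes outside the 9, 8 were listed at 0 in all 18 libraries and 5 reached a day mean of 1 RPKM. Defa17 was the highest, at 6.24 ± 3.07 RPKM on day 0, 2.46 ± 1.32 on day 2, 73.7 ± 13.2 on day 4 and 180 ± 43.8 on day 5, which placed it between Defa30 and Gm14851. It shared 320 of its 348 windows of 50 bases with Defa3, which reached 5.49 ± 1.3 RPKM on day 5. AY761184, named Defa39 in RefSeq, reached 47 ± 4.92 RPKM on day 5, Defa28 1.75 ± 0.182 and Defa-ps1 1.07 ± 0.368. Several genes listed at 0, Defa2, Defa20, Defa32, Defa33 and Defa37 among them, had no 50-base window of their own. Defa-ps12 and Defa-ps13 were also listed at 0, although 100% of their windows were their own. Defa31 and Gm7849 had no window of their own, yet highest day means of 0.00925 and 0.00753 RPKM. Whether reads could be assigned to the genes listed at 0 was not tested.

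The wider set of Paneth cell genes was compared through a list of 37 other genes, 19 secreted or granule products and 18 regulators, of which 14 and 15 were tested. From day 0 to day 5, 13 of the 14 products were higher and none lower in limma, where 11.4% of all genes were higher. Their median log2 change was 3.17, against -0.17 for all genes tested. Ccl6, Mptx1, Mptx2 and Habp2 were below 1 RPKM in every library of days 0 to 2. These genes passed the filter only through later libraries, which favours a call as higher. The list was also chosen with earlier results of these data known. Of the 15 regulators, 2 were higher, 1 was lower and 12 did not pass, with a median of -0.19, where 13% of all genes were lower.

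Lyz1, the lysozyme of Paneth cell granules, was at 38.6 ± 11.5 RPKM on day 0, 20.1 ± 10.8 on day 2 and 267 ± 84.8 on day 5. Its change from day 0 to day 5 was 2.74 ± 0.60 (SE) on the log2 scale with an adjusted p of 0.0072, and 0.0693 in the DNase-treated libraries alone. Ang4, an angiogenin with microbicidal activity, went from 4.12, 1.7 and 4.67 RPKM on day 0 to 94.2, 114 and 51.2 on day 5 (log2 change 4.28 ± 0.38, adjusted p 6.45e-06). Mmp7, the activating protease of the alpha-defensins, was at 0.602, 0.428 and 2.56 RPKM on day 0 and 26.8, 44.1 and 24.3 on day 5 (3.98 ± 0.55, adjusted p 0.000347). For both genes every library of day 5 was above every library of day 0.

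Mmp7 and Ang4 had their lowest mean on day 0, whereas Defa24, Defa30 and Lyz1 had it on day 2. Ang4 was higher on day 1 than on day 0, at 9.21 ± 2.04 against 3.49 ± 1.58 RPKM (log2 change 1.24 ± 0.38, adjusted p 0.035), a call lost in 7 of 29 alternatives with an adjusted p of up to 0.158. Mmp7 was at 3.86 ± 1.68 RPKM on day 1 against 1.2 ± 1.18 on day 0, with an adjusted p of 0.14. Whether these changes differ from those of the alpha-defensins was not tested. Itln1, a lectin of Paneth and goblet cells, fell from 394, 673 and 433 RPKM on day 0 to 69.5, 76.4 and 41.9 on day 1 (log2 change -2.98 ± 0.48, adjusted p 0.000783). It stood at 955, 856 and 658 RPKM on day 5, a change from day 0 of 0.74 ± 0.48 that did not pass (adjusted p 0.244).

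The largest increases among the products from day 0 to day 5 were in Reg3a and Reg3b, antimicrobial lectins that enterocytes also make. Reg3a averaged 2.25 ± 0.571 RPKM on day 0 and 499 ± 118 on day 5, a log2 change of 7.25 ± 1.05 (adjusted p 0.000477). For Reg3b the means were 3.05 ± 2.48 and 254 ± 222 RPKM, a change of 5.75 ± 1.17 (adjusted p 0.00476). Guca2b, which encodes the peptide hormone uroguanylin and is not particular to Paneth cells, rose by 5.14 ± 0.74 (adjusted p 0.00045). On day 4 these 3 genes were highest in replicate 1, as 8 of the 9 alpha-defensins were, Reg3a standing at 595, 62.2 and 32.9 RPKM. Ang4, at 29.4, 63.8 and 46.3 RPKM, and Mmp7, at 13.5, 22.7 and 38.8, were instead lowest in replicate 1 of that day.

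From day 0 to day 1, 2 of the 29 genes on the list were higher and 5 lower, where 9.54% and 9.05% of all genes were. The higher genes were Ang4 and Guca2b, the latter by 2.54 ± 0.74 (adjusted p 0.0263, up to 0.122 when 1 library of day 1 was left out). The lower genes with the largest changes were Itln1, Kit, a receptor tyrosine kinase, Clps, encoding colipase, and Fzd5, a Wnt receptor. Kit changed by -1.30 ± 0.24 (adjusted p 0.00211), Clps by -1.27 ± 0.30 (0.00918) and Fzd5 by -1.05 ± 0.27 (0.0137). The Fzd5 call was lost without day 0 replicate 2 (0.0549) and without day 1 replicate 2 (0.0617). None of the 29 was called from day 1 to day 2, day 2 to day 3 or day 3 to day 4, with medians of 0.10, 0.18 and 0.45. In these comparisons 0%, 0% and 0.036% of all genes were called.

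From day 4 to day 5, 3 of the 29 were higher, where 0.189% of all genes were, and none was lower. Ccl6, a chemokine, went from 3.12, 1.38 and 1.3 RPKM to 10.6, 12 and 8.64 (log2 change 2.00 ± 0.20, adjusted p 0.000439). Mptx1, a pentraxin, changed by 1.70 ± 0.32 (adjusted p 0.0483) and Clps by 1.65 ± 0.30 (adjusted p 0.0354). The call of Mptx1 was made in 7 of 29 alternatives and that of Clps in 10, against 27 for Ccl6.

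Among the regulators, Atoh1, the factor that commits cells to the secretory lineage, rose from 1.16 ± 0.43 RPKM on day 0 to 3.8 ± 0.446 on day 5 (log2 change 1.17 ± 0.26, adjusted p 0.00689). Spdef, which acts in the maturation of goblet and Paneth cells, rose by 1.18 ± 0.33 (adjusted p 0.0198). That call was lost without day 0 replicate 2 (0.0812), without day 5 replicate 2 (0.0658) and in the DNase-treated libraries alone (0.0594). Nfil3, a transcription factor, was lower on day 5, at 2.46 ± 0.907 RPKM against 6.21 ± 0.182 on day 0, a log2 change of -1.09 ± 0.33 (adjusted p 0.0283). Its call was lost in 5 of 29 alternatives, with an adjusted p of up to 0.133 without day 5 replicate 1.

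Of the 12 regulators that did not pass from day 0 to day 5, 6 are named by the rule for named genes. Wnt3, the Wnt ligand that Paneth cells make, was at 0.986 ± 0.417 RPKM on day 0 and 1.1 ± 0.221 on day 5, and Sox9, a Wnt target required for Paneth cells, at 11.3 ± 6.63 and 8.24 ± 2.36. Fzd5 was at 29.5 ± 2.99 and 26.3 ± 4.94 RPKM, Tcf7l2, a TCF factor, at 4.65 ± 0.207 and 3.7 ± 1.45, and Ephb3, which positions Paneth cells in the crypt, at 4.24 ± 1.54 and 4.85 ± 0.807. Xbp1, a factor of the secretory stress response, was at 76.9 ± 8.17 and 92.8 ± 5.76 RPKM. Their adjusted p-values in limma were 0.783, 0.709, 0.64, 0.29, 0.701 and 0.238. Gfi1, which acts downstream of Atoh1, stayed below the filter at 0.274 ± 0.0975 and 0.875 ± 0.069 RPKM.

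**Figure D5:**
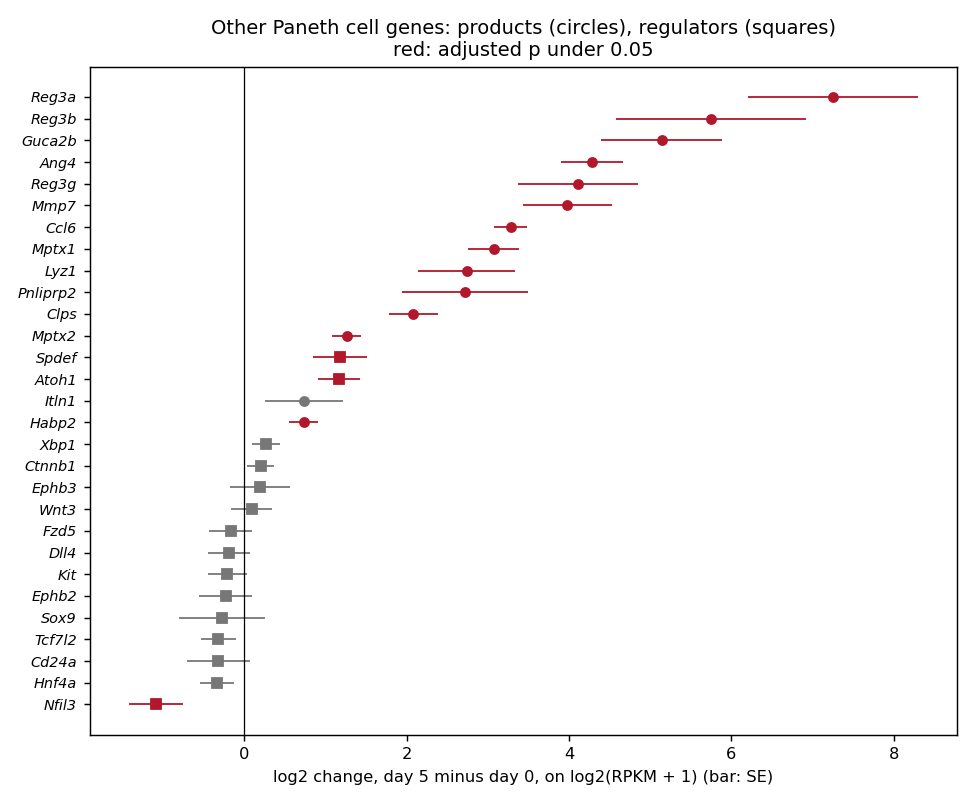
Log2 change from day 0 to day 5 with its SE (x axis) for the 29 other Paneth cell genes tested (y axis), circles for products and squares for regulators, red where limma's adjusted p was under 0.05. All products except Itln1 are red and right of 0, while 12 of the 15 regulators are grey.

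The pattern of the members was set beside that of lysozyme. The ratio of Defa24 to Lyz1 in RPKM was between 1.55 and 2.9 in the 6 libraries of days 1 and 2, and between 5.29 and 9.44 in the 3 of day 5. The genes whose pattern was most like the mean of the 9 members over the 18 libraries, alpha-defensins left out, were Ccl6 and Ramp1 (Pearson's r of 0.981 each), Mptx1 (0.973), Klk1, a kallikrein (0.966), and C87977 (0.965). Klk1 is also among the goblet cell markers summed below. Among the tested genes Lyz1 ranked 43 with an r of 0.907, Ang4 223 with 0.823, Mmp7 564 with 0.736 and Itln1 601 with 0.729. These correlations describe libraries that share the same days and media. Ccl6, Ramp1 and Mptx1 were below 1 RPKM in every library of days 0 to 2, as most members were. The ranking favours such genes on the log2(RPKM + 1) scale, and a high rank shows no common control. Ramp1 passed the filter only through day 5. Ramp1, a receptor activity-modifying protein, was at 0.0689 ± 0.0491 RPKM on day 0 and 1.09 ± 0.041 on day 5, a low level.

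Markers of other epithelial cells moved over the same days. The summed RPKM of 8 goblet cell markers was 214 to 588 on day 0 and 1883 to 2749 on day 5, with 6 of the 8 higher in limma, and that of 8 enterocyte markers went from 897 to 1176 up to 13925 to 18133, with 7 of 8 higher. None of 8 enteroendocrine and none of 5 stem cell markers was called. The enteroendocrine sum was 112 to 365 RPKM on day 0 and 217 to 271 on day 5. The stem cell sum went from 170 to 289 up to 422 to 642 RPKM, with Olfm4 averaging 124 and 446. The mean of Ascl2 was also higher on day 5, while those of Lgr5, Smoc2 and Axin2 were lower. Immune markers, 7 in all and including the granule genes Mpo and Elane of white blood cells, summed to 0.0816 to 0.389 RPKM on day 0 and 0.325 to 0.632 on day 5. Of these, 2 were at 0 in all 3 libraries of day 5. The 4 general epithelial markers summed to 934 to 1654 RPKM on day 0 and 1049 to 1219 on day 5, and none was called. The part of these other cell types in the alpha-defensin values was not tested.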

How the data were processed

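The authors deposited RPKM values for 18 RNA-seq libraries. Per the submitters' processing notes, the tools included STAR 2.5.2b, bcl2fastq 2.17 and edgeR 3.20.5, and the build was mm10. Their roles, the annotation and the handling of reads matching several genes are not given in the sources. RNA came from a kit for single cells and libraries from a TruSeq mRNA kit, per the labels' protocols. Depth was recovered from whole-read steps of low values (within 0.02 of a read), the depths implied by 235 to 347 genes per library agreeing within 2e-05.

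The members and all gene lists were chosen with earlier results of these data known. Tests used limma 3.58.1 in R 4.3.3 (lmFit, eBayes with trend) on log2(RPKM + 1), all libraries in 1 model with a term per day, keeping genes that had 1 RPKM or more in 3 libraries or more, two-sided, with Benjamini-Hochberg adjustment over 11111 genes and calls at an adjusted p under 0.05. The scale understates changes of low genes. The line was tested by an F test of the mouse terms. Code was tested on simulated data.

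Named were all 9 members, other alpha-defensins reaching a day mean of 1 RPKM, 13 fixed Paneth cell genes, up to 4 called list genes per direction and comparison, and the 5 genes most like the members; other genes were named after their values were seen. Replicate numbers pair libraries by the titles' mouse for replicates 1 and 3 but not for replicate 2, and replicate 1 also lacked DNase treatment throughout. Residuals of same-numbered libraries correlated with medians of 0.17, 0.088 and 0.244 for replicates 1, 2 and 3. Sequences came from RefSeq and GENCODE M21. Alternatives covered scaling, pseudocount, filter, model and omitted libraries.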

Additional observations from a re-analysis of the deposited data

How the results depend on the processing

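Over 29 alternatives and 21 results, 502 of 550 values stayed within 1.5 times a count, or within the spread between libraries of a median (0.41 on the log2 scale). These values include counts of called members on days 0 to 2, to which 7 members too low to be called could add nothing. They also include counts in the test of the line, where nothing is concluded for these 7. Leaving out a library of neither day compared leaves a median log2 change as it was. The 502 thus hold values that could not move. The settings tried included a pseudocount of 0.1, a filter at 5 RPKM, which leaves out Defa29, Defa34 and Gm15292, and the 12 DNase-treated libraries alone. In the fit of the compared days alone, 1 member, Defa30, was called lower from day 0 to day 1. Leaving out single libraries gave 0 calls of members in every test. Among days 0 to 2 this could concern only Defa24 and Defa30, as the other 7 were too low to be called. From day 1 to day 2, 0% of all genes were called in the main fit. With a pseudocount of 0.1 the members' median log2 change was 1.49 from day 2 to day 3, 2.94 from day 3 to day 4 and 6.57 from day 0 to day 5, as the construction of that scale implies. Without day 3 replicate 2, the members separated from day 2 to day 3 were 8 in place of 2, and from day 3 to day 4 they were 7 with and without it. Leaving out single libraries, the medians, which on days 0 to 2 are set by members near 0, ran from -0.11 to -0.05 from day 0 to day 1, -0.03 to 0 from day 1 to day 2, 0.1 to 0.65 from day 2 to day 3, 1.27 to 2.21 from day 3 to day 4, 1.59 to 2.15 from day 4 to day 5 and 4.36 to 4.6 from day 0 to day 5. For the other Paneth cell genes from day 0 to day 1, the count higher (2) was 1 in DNase-treated libraries alone and with no filter, 4 with mouse as a factor, and 0 to 2 when single libraries were left out. The count lower (5) was 3 in DNase-treated libraries alone and at the 5 RPKM filter, 10 with array weights and for the compared days alone, and 3 to 7 when single libraries were left out. From day 3 to day 4, array weights gave 11 higher and 1 lower in place of 0, and leaving out single libraries 0 to 1 higher and 0 lower. From day 4 to day 5, the count higher (3) was 9 with array weights, 0 for the compared days alone and with a pseudocount of 0.1, and 1 with median-of-ratios scaling, quantile normalization, no filter, or after leaving out 3 libraries that stood apart in earlier results (replicate 1 of day 0, replicate 2 of day 3 and replicate 3 of day 4). It was 1 to 3, and the count lower 0, when single libraries were left out. From day 0 to day 5, the count lower (1) was 0 in DNase-treated libraries alone and 2 with array weights, no filter and quantile normalization; single libraries left out gave 0 to 1 lower and 12 to 15 higher. The cause of the other shifts was not tested.

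With the replicate number as a block, the count of other Paneth cell genes higher from day 4 to day 5 was 1 in place of 3. The count lower from day 0 to day 1 was 7 in place of 5, and no other count moved by more than 1 gene. Of the 18 libraries, 12 correlated best with their own number. By the titles, replicates 1 and 3 each keep the same mouse on all days, and replicate 1 also lacked DNase treatment on all days. The main fit has no term for this.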
